A study of Mus musculus with 10 samples.

Results

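Prg4-tdTomato+ cells were compared with Col2a1-eGFP+ cells sorted at day 14 from DMSO cultures of 3xR, a mouse embryonic stem cell line, over all expressed genes. The members of the comparison were chosen by their labels. Of the 10 libraries of poly(A) RNA in the series, 6 form 3 pairs that share a replicate number, with an eGFP+ and a tdTomato+ library each for numbers 1, 3 and 5. Another eGFP+ library, number 4, has no tdTomato+ DMSO partner and served as a check. All 7 libraries share the line, the day and DMSO, the solvent control, and differ in the reporter of the sorted cells. The line is named only as 3xR, and the labels give neither its clones nor the cultures behind each library. The p-values of the paired fit therefore cover the spread of the differences within these 3 pairs, which may be technical. They do not cover the spread between replicate numbers, which the pairing takes out. The other 3 libraries, tdTomato+ cells from cultures given Fsk, entered only the alternative fits.

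Collagen II, encoded by Col2a1, forms the fibrils of hyaline cartilage together with collagens IX and XI, and these fibrils hold a gel of aggrecan, link protein and hyaluronan. The transcription factor Sox9 turns on this matrix programme in chondrocytes. Prg4 encodes lubricin, a secreted glycoprotein of joint surfaces and tendon sheaths, so a Prg4 reporter is used to mark superficial joint and tendon sheath type cells. Tendon cells are built around collagen I and use the transcription factors Scx and Mkx.

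Total counts of the 7 libraries lay between 15561217 and 20408696. Ribosomal RNA genes took from 0.0451 to 5.22% of the counts and mitochondrially encoded genes from 2.13 to 4.94%, and neither share was ordered by reporter. Between libraries of the same reporter, 22.3 to 45.0% of 15187 tested genes differed at least 2-fold, against 18.0, 28.2 and 6.19% within pairs 1, 3 and 5. Partners of a pair were thus closer than most libraries of one reporter, and pair 3 was the least close of the pairs. Libraries that differed in both reporter and number ranged from 18.7 to 46.6%, and some of these were closer than pair 3. All levels below are depth-scaled counts (CPM), and all tests use edgeR's quasi-likelihood test blocked on the replicate number, with Benjamini-Hochberg adjustment over the 15187 genes, at an adjusted p below 0.05.

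**Figure D1:**
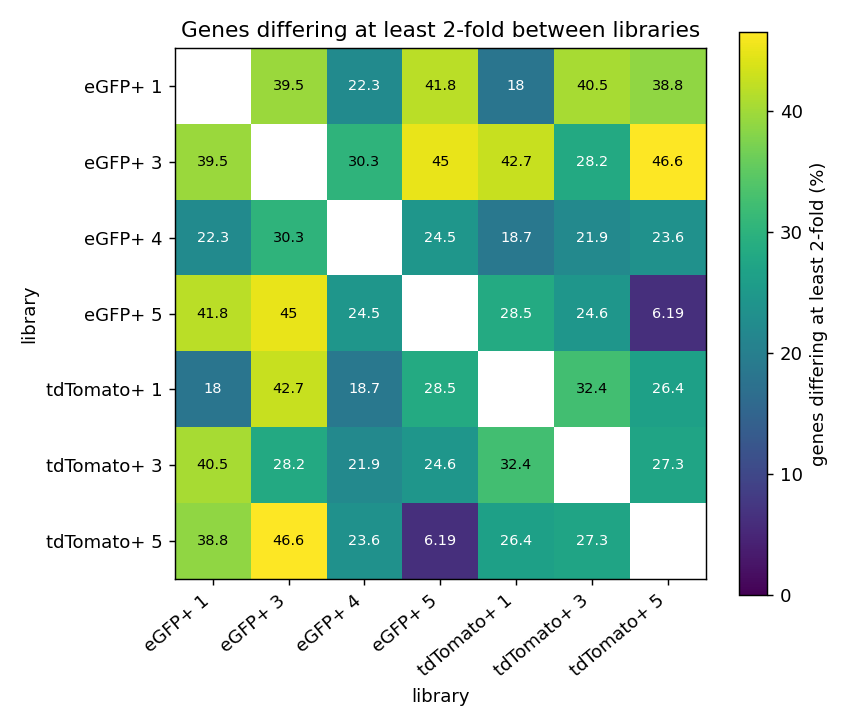
Share of the 15187 tested genes, in percent, whose levels differed at least 2-fold between each 2 of the 7 DMSO libraries (both axes list the libraries by reporter and number). The lowest shares in the grid are 6.19% for pair 5 and 18.0% for pair 1, while eGFP+ libraries 3 and 5 differed at 45.0% of genes.

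In this paired comparison 68 genes, 0.448% of those tested, passed the threshold. In tdTomato+ cells 56 of them were lower (0.369%) and 12 were higher (0.0790%), each by at least 2-fold. The genes that were lower are led by the collagens and matrix proteins of cartilage, followed by notochord and keratin genes. The higher ones include the tendon matrix gene Thbs4 and 4 predicted genes that share sequence with each other. In bulk RNA, fewer cells of a type and less RNA per cell cannot be told apart. The count rests on the pairing. Without the block 0 genes passed edgeR's test on the same 6 libraries, with 107 at an unadjusted p below 0.05, and 0 genes passed on all 7 DMSO libraries, with 195 at that level. With the block and all 10 libraries 14 genes passed, all lower, and all 14 are among the 68. DESeq2 and limma-voom with the block gave 152 and 178 genes, with the 68 among them in each. Of all 15187 genes in the main fit, 8088 had a positive and 7099 a negative fold change. An unadjusted p below 0.05 was found for 1597 of them, 1018 higher and 579 lower. The counts by gene list below are to be read beside these.

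**Figure D2:**
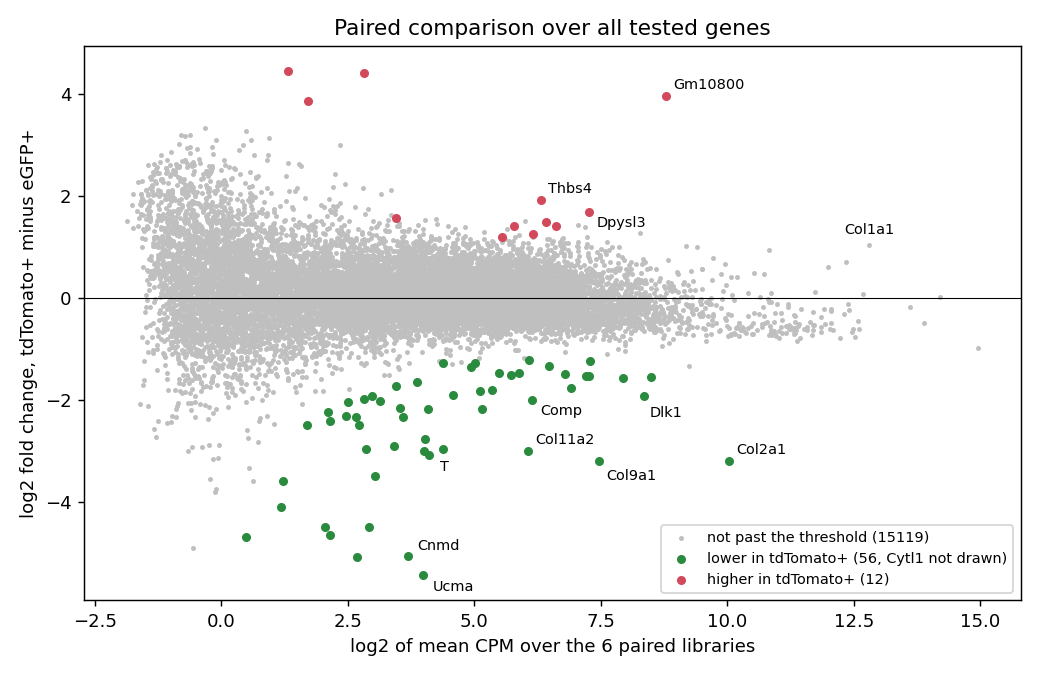
Fitted log2 fold change of tdTomato+ against eGFP+ cells (vertical axis) against the log2 of the mean CPM over the 6 paired libraries (horizontal axis), 1 point a gene. Green points are the genes lower in tdTomato+ cells and red points the 12 higher. Cytl1 is not drawn, because it had 0 reads in each tdTomato+ library and its fitted value of -9.24 rests on no read there. Col2a1 and Col9a1, both at -3.20, stand apart from genes of like level.

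The labelled reporters were examined first. Col2a1 (chromosome 15, 97975602 to 98004695, minus strand of GRCm38) stood at 819, 2927, 966 and 1879 CPM in eGFP+ libraries 1, 3, 4 and 5, and at 182, 382 and 80.9 in tdTomato+ libraries 1, 3 and 5. Every eGFP+ library was above every tdTomato+ library, and the fold change was -3.20 on the log2 scale (SE 0.42, adjusted p = 0.00036). The eGFP+ cells were sorted on a Col2a1 reporter, so the test of this gene is not independent of the sort. Prg4 (chromosome 1, 150449412 to 150466165, minus strand) was covered by 37, 0, 23 and 4 reads in eGFP+ libraries 1, 3, 4 and 5 and by 24, 15 and 12 reads in the tdTomato+ libraries. The highest count was in an eGFP+ library and the groups overlapped, so the Prg4 transcript did not mark the tdTomato+ label at this depth. Its log2 fold change was 1.04 (SE 1.25, adjusted p = 0.799), and an exon of Prg4 overlaps an exon of Tpr on the opposite strand, whose reads cannot be told apart where counting ignores strand.

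**Figure D3:**
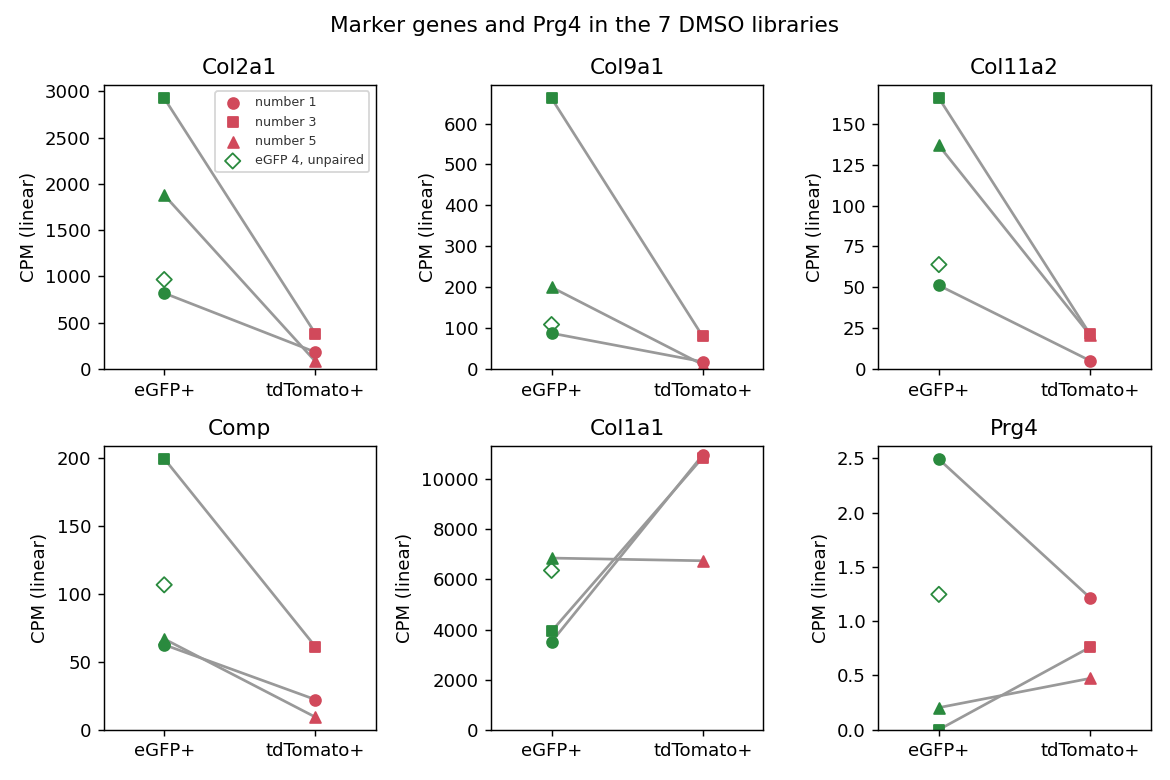
CPM on a linear axis of Col2a1, Col9a1, Col11a2, Comp, Col1a1 and Prg4 in the 7 DMSO libraries. Green symbols are eGFP+ and red symbols tdTomato+ libraries, the symbol's shape gives the number, grey lines join pairs and the open diamond is the unpaired eGFP+ library 4. The first 4 genes go down in each pair, Col1a1 goes up in pairs 1 and 3 and is level in pair 5, and Prg4 is at or below 2.49 CPM in every library.

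Of 7 cartilage collagen genes, 5 fell in tdTomato+ cells, the reporter's gene Col2a1 among them. The median log2 fold change was -1.55 over the list against 0.04 over all tested genes. Col9a1, a chain of collagen IX (chromosome 1, 24177610 to 24252684, plus strand), stood at 87.3, 662, 108 and 200 CPM in eGFP+ libraries 1, 3, 4 and 5 and at 17.6, 79.7 and 10.4 in the tdTomato+ libraries. Its highest tdTomato+ library lay just under its lowest eGFP+ library, and it fell by 3.20 on the log2 scale (SE 0.33, adjusted p = 2.5e-05). Col11a2, a chain of collagen XI, stood at 51.2, 166, 63.9 and 137 CPM in eGFP+ and at 5.06, 21.3 and 20.8 in tdTomato+ libraries. Its groups did not overlap and its within-pair log2 ratios of -3.31, -2.96 and -2.71 were close to each other. The fitted value was -3.00 (SE 0.26, adjusted p = 3.0e-06).

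The other collagen IX chains changed less. Col9a3 had 247, 671, 332 and 696 CPM in eGFP+ libraries 1, 3, 4 and 5 and 84.9, 194 and 281 in tdTomato+ libraries, and it fell by 1.55 on the log2 scale (SE 0.27, adjusted p = 0.0077). Col9a2 had 89.5, 313, 179 and 255 CPM against 40.7, 135 and 101, with -1.23 (SE 0.24, adjusted p = 0.021). Both are lower in each pair, although tdTomato+ libraries of one pair overlap eGFP+ libraries of another. Neither remaining member passed: Col11a1, the partner chain of Col11a2, had a value of -0.74 (SE 0.35, adjusted p = 0.47), and Col27a1, another fibrillar chain of cartilage, had 0.0092 (SE 0.26).

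Among cartilage proteoglycans and matrix proteins, 16 of 18 genes could be tested, 11 fell and none rose, with a median log2 fold change of -1.90. Ucma, a secreted protein of immature chondrocytes bound to the matrix, stood at 2.15, 66.7, 6.07 and 24.8 CPM in eGFP+ libraries 1, 3, 4 and 5 and at 0.101, 1.52 and 0.472 in tdTomato+ libraries. It varied widely among eGFP+ libraries, and still each of them was above each tdTomato+ library; the fold change was -5.43 (SE 0.40, adjusted p = 5.1e-07). Cnmd, which encodes chondromodulin, an inhibitor of vessel growth in cartilage, stood at 3.84, 30.0, 8.23 and 41.5 CPM against 0.304, 0.810 and 0.826. Its tdTomato+ libraries were all under 1 CPM, at -5.05 (SE 0.43, adjusted p = 3.0e-06). Snorc, a small membrane proteoglycan of chondrocytes, stood at 8.62, 26.3, 2.71 and 2.64 CPM against 0.253, 0.911 and 0.0394, at -5.06 (SE 0.49, adjusted p = 1.0e-05).

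Cytl1, a cytokine-like protein secreted by chondrocytes, had 15, 72, 49 and 111 reads in eGFP+ libraries 1, 3, 4 and 5 and 0 reads in each tdTomato+ library. Taking 3 reads per library as the limit that a count of 0 allows, it was at least 6.65-fold lower in pair 1, at least 33.3-fold lower in pair 3 and at least 47.7-fold lower in pair 5 (adjusted p = 0.00071). Matn3, a matrilin that bridges cartilage fibrils, and Clec3a, a cartilage lectin, were also low, at 0.808 to 12.5 CPM and 1.08 to 16.9 CPM in eGFP+ libraries. Neither exceeded 0.590 CPM in tdTomato+ libraries, with fold changes of -4.48 (SE 0.59) and -4.64 (SE 0.73). Scrg1, a small secreted protein of cartilage-forming cells, fell by 3.48 on the log2 scale (SE 0.41).

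Comp, Hapln1, Chad and Prelp fell by smaller factors. Comp, a pentameric matrix protein of cartilage and tendon, stood at 62.5, 199, 107 and 66.7 CPM in eGFP+ libraries 1, 3, 4 and 5 and at 22.1, 61.1 and 9.25 in tdTomato+ libraries. The highest tdTomato+ library was below the lowest eGFP+ library by a narrow margin, and Comp fell by 2.01 on the log2 scale (SE 0.29, adjusted p = 0.00081). Hapln1, the link protein that ties aggrecan to hyaluronan, was even across tdTomato+ libraries, at 110, 118 and 112 CPM, against 166, 556, 253 and 408 in eGFP+ libraries. Its fold change was -1.57 (SE 0.31, adjusted p = 0.020). Chad, a cell-binding leucine-rich protein of cartilage, had -1.80 (SE 0.28), and Prelp, a leucine-rich protein that anchors basement membranes, had -1.73 (SE 0.34), with an exon that overlaps a gene on the opposite strand.

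The best known proteoglycan did not follow. Acan, the gene of aggrecan, stood at 262, 151, 216 and 441 CPM in eGFP+ libraries 1, 3, 4 and 5 and at 350, 72.6 and 126 in tdTomato+ libraries. It was higher in tdTomato+ cells in pair 1 and lower in pairs 3 and 5, with a fold change of -0.83 (SE 0.34, adjusted p = 0.40). Matn4 (-1.03, SE 0.24, adjusted p = 0.075), Epyc (-0.51), Chst3 (-0.47) and Cilp (1.55) did not pass either, and Matn1 and Mia were too low to test.

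The 16 called cartilage genes of both lists were then read in the unpaired library. In eGFP+ library 4, which the fit did not use, all 16 stood above all 3 tdTomato+ libraries, while 37 of the 56 lower genes (66.1%) and 19.8% of all tested genes did. The tdTomato+ libraries are those of the fit, so this check is new on the eGFP+ side alone. Col2a1 is among the 16, and library 4 was sorted on the same Col2a1 reporter, so for that gene the check is not independent of the sort. Of the 16, 13 had all 3 paired eGFP+ libraries above all 3 tdTomato+ libraries, as had 31 of the 56 lower genes and 1.73% of all genes. With each pair left out in turn, 14 of the 16 passed without pair 1, 12 without pair 3 and 16 without pair 5, and 12 passed in each.

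Promoter windows of 3 of these lower genes are shown as examples chosen after their values were seen: Ucma and Col11a2, which have the lowest adjusted p-values among the called matrix protein and collagen genes, and, because its window holds one of the words searched, Chadl, a chondroadherin-like gene outside the lists that had 18.6, 26.9, 13.2 and 20.8 CPM in eGFP+ libraries 1, 3, 4 and 5 and 7.80, 5.16 and 8.34 in tdTomato+ libraries. Each window runs from 250 bases before to 50 after the RefSeq start on GRCm38.p6, written 5′ to 3′ on the gene's strand, with ACAATG in capitals where present.
Ucma, chr2:4975872-4976171, plus strand: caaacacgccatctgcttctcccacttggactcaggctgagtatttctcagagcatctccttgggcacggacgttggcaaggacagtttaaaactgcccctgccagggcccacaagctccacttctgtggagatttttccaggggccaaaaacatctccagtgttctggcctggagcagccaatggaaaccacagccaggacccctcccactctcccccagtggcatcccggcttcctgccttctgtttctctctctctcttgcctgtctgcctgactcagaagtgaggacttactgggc
Col11a2, chr17:34038888-34039187, plus strand: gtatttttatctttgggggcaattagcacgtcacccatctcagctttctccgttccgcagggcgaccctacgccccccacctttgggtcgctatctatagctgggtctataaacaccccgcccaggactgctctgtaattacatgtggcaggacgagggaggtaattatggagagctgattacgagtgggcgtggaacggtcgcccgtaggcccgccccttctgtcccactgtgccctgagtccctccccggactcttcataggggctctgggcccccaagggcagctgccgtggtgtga
Chadl, chr15:81697238-81697537, minus strand: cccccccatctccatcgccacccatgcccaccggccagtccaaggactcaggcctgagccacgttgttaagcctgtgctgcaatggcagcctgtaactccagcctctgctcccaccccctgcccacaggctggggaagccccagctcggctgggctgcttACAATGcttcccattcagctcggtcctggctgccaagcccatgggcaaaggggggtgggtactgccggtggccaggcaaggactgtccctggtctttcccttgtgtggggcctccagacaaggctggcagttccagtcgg
The words ACAAAG and ACAATG, bound by SOX proteins, and the T-box word TCACACCT were searched on both strands. The SOX words share their first 4 letters and cannot match at the same place. RefSeq windows were found for 10 of the 16 called cartilage genes, 11 windows in all, and 0 of these held any of the 3 words. Of all 32851 mouse windows, 18.7% held ACAAAG, 12.6% ACAATG and 1.28% TCACACCT. For 41 of the 56 lower genes there were 47 windows. Of these windows 3 held ACAAAG, 3 held ACAATG, that of Chadl among them, and 0 held TCACACCT. The windows with ACAAAG belong to Cp and Krt18 only. Absence says only that these letters are not in the 300 bases read.

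Colgalt2, an enzyme that adds galactose to hydroxylysines of collagen, was the 1 member of 19 tested genes of collagen folding and secretion that passed. It stood at 25.6, 45.8, 19.6 and 15.1 CPM in eGFP+ libraries 1, 3, 4 and 5 and at 1.97, 4.96 and 3.42 in tdTomato+ libraries, with no overlap and a fold change of -3.00 (SE 0.35, adjusted p = 8.1e-05). Outside the lists, and named after their values were seen, Trpv4 and Fzd9 also fell. Trpv4, a calcium channel of chondrocytes, stood at 137, 48.0, 64.1 and 78.1 CPM against 45.9, 24.6 and 21.9, at -1.46 (SE 0.26, adjusted p = 0.0077). Its tdTomato+ libraries were all below its eGFP+ libraries, the closest being 45.9 against 48.0. Fzd9, a WNT receptor, had -1.27 (SE 0.27, adjusted p = 0.042).

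The regulators of chondrogenesis gave no call in the main fit. Of 13 tested, 0 passed edgeR's test in either direction, and the median log2 fold change was -0.31. At an unadjusted p below 0.05 were 2, Fgfr3 and Wwp2, both lower, against 579 of 15187 genes lower at that level. Fgfr3, an FGF receptor gene, stood at 4.71, 6.75, 6.72 and 9.24 CPM in eGFP+ libraries 1, 3, 4 and 5. In tdTomato+ libraries 1, 3 and 5 it stood at 1.67, 4.25 and 3.58, without overlap, at -1.17 (SE 0.41, adjusted p = 0.31). Sox9 stood at 127, 328, 135 and 167 CPM in eGFP+ libraries 1, 3, 4 and 5 and at 135, 187 and 145 in tdTomato+ libraries. The groups overlapped, at -0.31 (SE 0.26, adjusted p = 0.70). Its partners Sox5 and Sox6 had -0.40 (SE 0.26) and -0.45 (SE 0.28), and Wwp2, a ubiquitin ligase that hosts a cartilage microRNA and was the most abundant of the list, had -0.64 (SE 0.27, adjusted p = 0.40). Genes of hypertrophy and bone gave 0 calls among 11 tested by edgeR, with 1 at an unadjusted p below 0.05. DESeq2 and limma-voom also called 0 genes of either list. Without pair 5, 2084 of 14726 tested genes passed, 990 lower and 1094 higher. All list counts without that pair are to be read beside this. Calls over whole lists were not counted without pair 1 or pair 3. Wwp2 passed without pair 5 among the regulators, as lower, and 3 genes of hypertrophy and bone passed, 2 lower and 1 higher. The most abundant were Spp1, the osteopontin gene, at -0.98 (SE 0.46, adjusted p = 0.47), and Dmp1, a mineralised matrix gene, at 0.17 (SE 0.33).

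A second group of lower genes are those of the notochord, the embryonic midline rod that makes collagen II and persists in the intervertebral disc. Of 17 genes, 14 could be tested and 6 fell, with a median of -1.79, and none rose. The brachyury gene T, the transcription factor that defines the notochord and early mesoderm (chromosome 17, 8434423 to 8442496, plus strand), stood at 34.6, 46.3, 12.8 and 9.19 CPM in eGFP+ libraries 1, 3, 4 and 5 and at 3.85, 8.86 and 0.590 in tdTomato+ libraries. The highest tdTomato+ value nearly met the lowest eGFP+ value, while within pairs the log2 ratios were -3.13, -2.37 and -3.74. The fit gave -3.08 (SE 0.34, adjusted p = 4.7e-05).

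The simple-epithelial keratin genes Krt8, Krt18 and Krt19, expressed in the notochord and in epithelia, fell alongside. Krt8 stood at 19.3, 49.8, 7.10 and 10.7 CPM in eGFP+ libraries 1, 3, 4 and 5 and at 2.08, 14.7 and 0.905 in tdTomato+ libraries. The values followed the number as much as the reporter, since both libraries numbered 3 were the highest of their group, and the fit gave -2.77 (SE 0.36, adjusted p = 0.00036). Krt18 had -2.34 (SE 0.36) and Krt19 -2.49 (SE 0.42). Cd24a, a surface sialoglycoprotein of disc and epithelial progenitors, had 38.1, 106, 27.4 and 28.5 CPM against 5.67, 27.7 and 7.71, at -2.18 (SE 0.27, adjusted p = 0.00024), and Car3, a carbonic anhydrase, had -2.15 (SE 0.37).

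The 8 other tested notochord genes did not pass. Basp1, a membrane-bound signalling protein, stood at 53.7 to 102 CPM in eGFP+ and 78.9 to 118 CPM in tdTomato+ libraries, and Chrd, the BMP antagonist chordin, at 3.90 to 18.9 and 4.76 to 14.5 CPM. These were the members with positive values, at 0.41 (SE 0.24) and 0.26 (SE 0.34). The BMP antagonist gene Nog had -0.18 (SE 0.43) and the forkhead gene Foxa1 -0.58 (SE 0.53). Noto, the homeobox gene that defines the notochord, was at 0 in 6 libraries and at 0.236 CPM in tdTomato+ library 5, and Foxa2 did not exceed 0.197 CPM in any. Shh, the notochord's signal, ranged from 0.108 to 3.59 CPM in eGFP+ libraries and from 0 to 0.658 in tdTomato+ libraries and did not pass (adjusted p = 0.33). Summed over the 17 genes, eGFP+ libraries 1, 3, 4 and 5 held 1404, 1853, 666 and 299 CPM and tdTomato+ libraries 602, 506 and 234, of which Lgals3, a galectin of disc and other cells, gave 1212, 1416, 463 and 130 CPM and 493, 291 and 96.4 CPM. Lgals3 had -1.34 (SE 0.35, adjusted p = 0.13) and did not pass here, though DESeq2 and limma-voom called it lower.

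Epithelial and endoderm markers overlap with this list. Of 19, 6 could be tested and 3 fell, the same 3 keratins. Summed levels were 93.2, 186, 55.2 and 33.3 CPM in eGFP+ libraries 1, 3, 4 and 5 and 18.3, 68.6 and 24.4 in tdTomato+ libraries. The epithelial genes Epcam, an adhesion molecule, and Spint2, a protease inhibitor, were detected. Epcam stood at 5.12, 10.2, 5.36 and 0.914 CPM in eGFP+ libraries 1, 3, 4 and 5 and at 1.37, 3.34 and 0.590 in tdTomato+ libraries, with -1.43 (SE 0.49, adjusted p = 0.30). Spint2 stood at 45.4, 55.8, 29.3 and 13.2 CPM against 10.1, 33.2 and 18.5, with -0.80 (SE 0.40, adjusted p = 0.50). Both were lower in pairs 1 and 3, and both passed as lower without pair 5, when 5 genes of the list did. Other markers were at or near 0. Cdh1, the epithelial cadherin, did not exceed 0.492 CPM, the basal keratin Krt5 0.0542, the endoderm factor Sox17 0.108 and the fetal liver protein Afp 0.152, and Ttr was at 0 in all 7 libraries. The part of such cells in the keratin result was not tested. In contrast with the cartilage genes, only T and Krt19 of the 6 called notochord genes stood above all tdTomato+ libraries in eGFP+ library 4, although all 6 passed with each pair left out; a difference between these groups of genes was not tested.

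**Figure D4:**
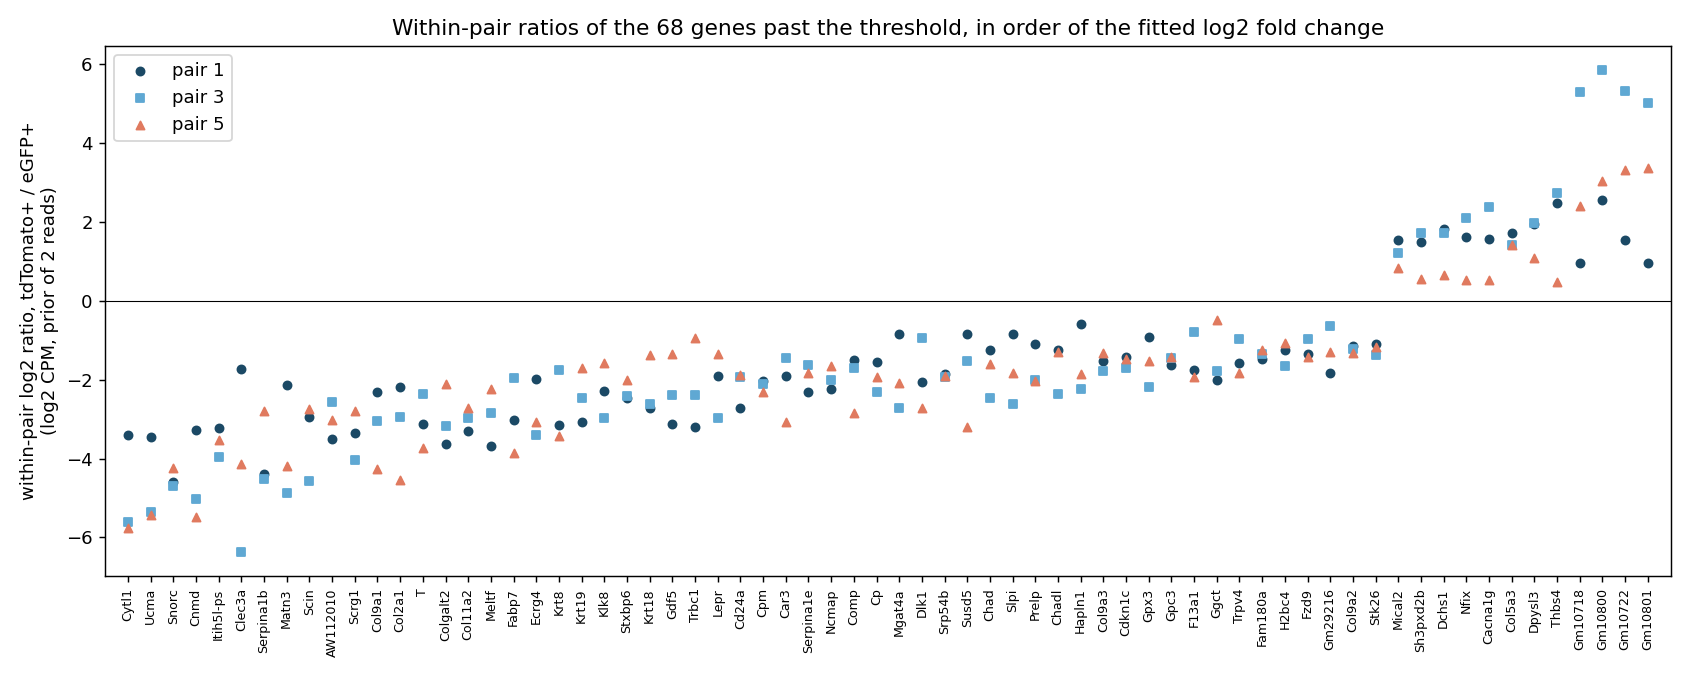
Within-pair log2 ratio of tdTomato+ to eGFP+ level (vertical axis, log2 CPM with a prior of 2 reads) for the 68 called genes, ordered by fitted fold change from left to right, with 1 symbol for each pair. All 56 genes on the left are below 0 and all 12 on the right above 0 in each pair, and pair 5 is the closest to 0 in most of the higher genes. The ratios of Cytl1 depend on the prior, since its tdTomato+ counts are 0.

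Outside these lists, the genes named next were singled out after their values were seen. Meltf, an iron-binding surface glycoprotein, stood at 43.1, 54.0, 26.6 and 14.6 CPM in eGFP+ libraries 1, 3, 4 and 5 and at 3.24, 7.44 and 2.99 in tdTomato+ libraries. It did not overlap, and it fell by 2.95 on the log2 scale (SE 0.32, adjusted p = 4.4e-05). Cpm, a membrane carboxypeptidase, had close within-pair ratios of -2.02, -2.11 and -2.32 and fell by 2.17 (SE 0.29). Ecrg4, a secreted peptide precursor, and Fabp7, a lipid-binding protein of neural and other progenitors, fell by 2.89 (SE 0.38) and 2.95 (SE 0.45).

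Dlk1, Cdkn1c and Gpc3 were also lower. Dlk1, an imprinted relative of the Notch ligands, stood at 122, 995, 287 and 264 CPM in eGFP+ libraries 1, 3, 4 and 5 and at 29.3, 517 and 39.9 in tdTomato+ libraries. Both libraries numbered 3 were far above the rest, so the groups overlapped, while each pair went down, at -1.91 (SE 0.33, adjusted p = 0.0062). Cdkn1c, an imprinted inhibitor of cyclin-dependent kinases, stood at 92.9, 530, 201 and 74.3 CPM against 34.5, 162 and 26.7, with within-pair ratios of -1.43, -1.71 and -1.47. It fell by 1.54 (SE 0.25, adjusted p = 0.0031). Gpc3, a glypican that limits body growth, stood at 29.1, 166, 35.1 and 38.5 CPM against 9.37, 61.3 and 14.2. It fell as well (adjusted p = 0.0038), with even within-pair ratios of -1.62, -1.44 and -1.43.

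Slpi, a secreted serine protease inhibitor, stood at 213, 320, 123 and 17.3 CPM in eGFP+ libraries 1, 3, 4 and 5 and at 120, 52.4 and 4.76 in tdTomato+ libraries. It was lowest in both libraries numbered 5 and fell by 1.77 on the log2 scale (SE 0.31, adjusted p = 0.0077). Gpx3, the extracellular glutathione peroxidase, Cp, the copper carrier ceruloplasmin, and F13a1, the catalytic chain of coagulation factor XIII, had -1.54 (SE 0.28), -1.98 (SE 0.38) and -1.49 (SE 0.27). Serpina1b and Serpina1e, copies of the gene of alpha-1-antitrypsin, had -4.49 (SE 0.46) and -2.04 (SE 0.43), but 43.5 and 53.9% of their 31-base words occur in other copies, so the counts of single copies are uncertain. The same holds for Srp54b, a signal recognition particle gene with 89.9% of its words shared, which had -1.90 (SE 0.27). In eGFP+ library 4 Srp54b stood at 6.28 CPM, below tdTomato+ libraries 1, 3 and 5 at 6.48, 15.3 and 8.11. It was the 1 gene of the 56 lower ones for which this was so.

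The joint and tendon genes gave few calls. Of 15 tested joint and superficial zone genes, 1 passed and it was lower: Gdf5, the growth factor of the embryonic joint interzone. Gdf5 stood at 7.81, 19.7, 4.33 and 4.26 CPM in eGFP+ libraries 1, 3, 4 and 5 and at 0.810, 3.70 and 1.61 in tdTomato+ libraries. No library overlapped, and the fold change was -2.33 (SE 0.43, adjusted p = 0.013). Creb5, a transcription factor of articular cartilage, was higher in each pair at 0.80 (SE 0.33, adjusted p = 0.41) without passing, and the hyaluronan synthase gene Has2 had -0.15 (SE 0.27). Without pair 5 Sema3c also passed, as higher. DESeq2 on the 3 pairs called Gdf5 and Clu, both lower, and limma-voom called Gdf5 alone. Clu stood at 570, 1964, 744 and 384 CPM in eGFP+ libraries 1, 3, 4 and 5 and at 396, 1076 and 177 in tdTomato+ libraries. It was lower in each pair, at -0.84 (SE 0.30, adjusted p = 0.32 by edgeR).

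Of 15 tested tendon genes, Thbs4, a thrombospondin of tendon and muscle attachment matrix, was the 1 that passed, and it was higher. It stood at 34.8, 11.2, 102 and 66.6 CPM in eGFP+ libraries 1, 3, 4 and 5 and at 195, 75.6 and 93.2 in tdTomato+ libraries. Among the 3 pairs the groups did not overlap, but eGFP+ library 4 exceeded 2 of the tdTomato+ libraries, and the fold change of 1.92 (SE 0.38, adjusted p = 0.042) was lost without pair 3 (1.48, adjusted p = 0.11). Within pairs the log2 ratios were 2.49, 2.74 and 0.48, so pair 5 held the smallest rise. Mkx had 5.79, 4.15, 23.1 and 12.5 CPM against 17.0, 8.40 and 18.5, higher in each pair but with eGFP+ library 4 above all tdTomato+ libraries, at 1.03 (SE 0.33, adjusted p = 0.26). Scx, at 0.21 (SE 0.28), and Tnmd, a tendon membrane protein, at -0.03 (SE 0.28), did not pass, and both change sign with pair 5 left out. Without that pair 4 tendon genes passed, all higher: Thbs4, Mkx (1.29, adjusted p = 0.030), Tnc, the tenascin-C gene, and Egr1, a transcription factor. At an unadjusted p below 0.05 in the full fit, 2 genes of the list were higher and 4 lower. The lower ones were Dcn (-1.29, SE 0.38), Col14a1 (-0.93, SE 0.34), Htra3 (-0.82, SE 0.28) and Fmod (-0.67, SE 0.29), and none passed edgeR's test. DESeq2 called only Thbs4 of the list, and limma-voom called Thbs4 higher and Dcn lower.

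Fibrous matrix genes leaned higher in pairs 1 and 3 and not in pair 5. Of 18 tested, 15 had a positive fold change and 0 passed edgeR's test, with 4 at an unadjusted p below 0.05, all higher. Over all tested genes 8088 of 15187 were positive and 1018 were higher at that level. The list's median within-pair ratio was 1.01 in pair 1, 0.46 in pair 3 and -0.16 in pair 5. Col1a1, the main chain of collagen I, stood at 3504, 3928, 6359 and 6853 CPM in eGFP+ libraries 1, 3, 4 and 5 and at 10968, 10867 and 6746 in tdTomato+ libraries. Pair 5 was level, and the fold change of 1.04 (SE 0.43, adjusted p = 0.40) passed with that pair left out, at 1.56 (adjusted p = 0.00074), and in no other alternative. Without pair 5, 8 genes of the list passed, all higher, Col1a2, Col3a1 and Col5a1 among them. Over all genes 1094 of 14726 passed as higher without that pair. DESeq2 and limma-voom on the 3 pairs called 0 of the list. Fn1, the fibronectin gene, had 0.07 (SE 0.42).

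Among the 12 higher genes, 8, with Thbs4, are genes of known product. Dpysl3, a microtubule-binding protein of growing processes, stood at 95.2, 28.0, 129 and 103 CPM in eGFP+ libraries 1, 3, 4 and 5 and at 368, 111 and 221 in tdTomato+ libraries. The paired libraries did not overlap, and it rose by 1.68 on the log2 scale (SE 0.27, adjusted p = 0.0030). Thbs4 and Dpysl3 were the 2 of 12 higher genes whose groups of 3 were apart, a state found in 2.17% of all genes. Nfix, a nuclear factor I transcription factor, stood at 44.8, 12.6, 58.9 and 139 CPM against 138, 54.5 and 200, overlapping between pairs and higher within each, at 1.42 (SE 0.29, adjusted p = 0.031).

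Col5a3, a chain of collagen V, had the most even rise, with within-pair ratios of 1.72, 1.42 and 1.43 and a fold change of 1.56 (SE 0.33, adjusted p = 0.036). Its levels were 11.0, 2.74, 3.58 and 2.08 CPM in eGFP+ libraries 1, 3, 4 and 5 and 36.6, 7.49 and 5.79 in tdTomato+ libraries, with both libraries numbered 1 the highest of their groups. Dchs1, a giant cadherin of planar polarity, Sh3pxd2b, a scaffold of podosomes, Mical2, an actin-oxidising enzyme, and Cacna1g, a T-type calcium channel, rose by 1.41 (SE 0.28), 1.25 (SE 0.27), 1.20 (SE 0.25) and 1.49 (SE 0.31). Of the 12 higher genes 0 passed in all 3 leave-outs of a pair, against 31 of the 56 lower genes. In eGFP+ library 4, 3 of the 12 (25%) stood below all tdTomato+ libraries, against 19.0% of all genes.

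The remaining 4 higher genes, Gm10718, Gm10722, Gm10800 and Gm10801, are predicted genes on chromosomes 2 and 9. Gm10800 (chromosome 2, 98666547 to 98667301, minus strand) stood at 1.14, 28.5, 276 and 104 CPM in eGFP+ libraries 1, 3, 4 and 5 and at 7.24, 1655 and 863 in tdTomato+ libraries. Its values spanned a far wider range than its fold change of 3.94 (SE 0.58, adjusted p = 0.0077), and libraries numbered 1 were the lowest of both reporters. Between 31.3 and 50.2% of the 31-base words of each of the 4 genes occur in another of them, so they are not 4 separate measurements and their counts are uncertain.

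Limb and HOX genes had mostly positive values without a call, by edgeR, DESeq2 or limma-voom on the 3 pairs. Of 11 tested limb and craniofacial mesenchyme factors, 10 had a positive fold change, with a median of 0.79, and 0 passed edgeR's test with 2 at an unadjusted p below 0.05. The most abundant were the paired homeobox genes Prrx1 at 0.44 (SE 0.26) and Prrx2 at 0.15 (SE 0.25). Without pair 5, 3 limb factors passed, all higher, against 1094 of 14726 genes over all: Prrx1 (0.75, adjusted p = 0.012), Dlx5 and Alx4. Of 12 tested HOX genes, 11 were positive, with a median of 1.04, and 0 passed, with 4 at that level. Hoxb4 had 5.66, 2.46, 4.28 and 4.26 CPM in eGFP+ libraries 1, 3, 4 and 5 and 12.3, 4.91 and 7.56 in tdTomato+ libraries. It was higher in each pair, at 0.98 (SE 0.37, adjusted p = 0.35), and Hoxa2 had 1.06 (SE 0.45). HOX levels summed over 35 genes, 23 of them below the filter, were 9.70 to 28.6 CPM in eGFP+ and 30.1 to 43.5 in tdTomato+ libraries. More genes in general reached 10 reads in tdTomato+ libraries 1, 3 and 5 (14169, 15896 and 17098) than in their eGFP+ partners (13930, 13910 and 15452). Without a filter on low counts the median over all genes was 0.34. Whether the HOX sums go beyond this general lean was not tested.

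Matrix proteinases and their inhibitors also had more positive than negative values, 17 of 21 tested, with 0 past edgeR's test and 6 at an unadjusted p below 0.05, all higher. DESeq2 called 0 of them and limma-voom 1. Their most abundant members were Timp1, at -0.30 (SE 0.35), and Mmp2, a gelatinase, at 0.57 (SE 0.34). Without pair 5, 5 genes passed, all higher: Mmp2 (0.96, adjusted p = 0.015), Plat, Adamts4, Adamts9 and Mmp19. Over all genes 1094 of 14726 passed as higher without that pair. In BMP signalling 0 of 20 genes passed, with 6 at an unadjusted p below 0.05, while DESeq2 called 1 and limma-voom 2. Without pair 5, 1 passed as higher and 3 as lower. Id3 and Id2, targets of the pathway, had 0.31 (SE 0.28) and -0.56 (SE 0.25).

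Ribosomal protein and cell cycle genes differed among the pairs. All 22 cytosolic ribosomal protein genes had a negative fold change, with a median of -0.62, and 0 passed, with 0 at an unadjusted p below 0.05. Their median within-pair ratios were -0.76 in pair 1, -1.08 in pair 3 and 0.10 in pair 5, and their summed level ran from 24837 CPM in eGFP+ library 5 to 147530 in eGFP+ library 3. Rplp1 and Rplp0, stalk proteins of the large subunit, had -0.61 (SE 0.42) and -0.46 (SE 0.39). Without pair 5, 17 of the 22 passed, all lower, against 990 of 14726 over all genes. DESeq2 and limma-voom on the 3 pairs called 0 of the 22. Of 24 cell cycle genes 23 had a negative fold change, with a median of -0.42 and 0 past the test, 3 at an unadjusted p below 0.05. DESeq2 and limma-voom called 0 of these too, and without pair 5 Pcna passed, as lower. The list's difference was widest in pair 5, with a median ratio of -1.07 against -0.11 and -0.07 in pairs 1 and 3. The most abundant genes Mcm6 and Pcna, both of DNA replication, had -0.43 (SE 0.24) and -0.67 (SE 0.24). Both differed least in pair 5. Within pairs 1, 3 and 5 the ratios were -0.73, -0.34 and -0.23 for Mcm6 and -0.84, -0.59 and -0.57 for Pcna.

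Markers of other lineages were largely below the filter on low counts. Tested members numbered 2 of 10 for pluripotency, 6 of 18 for neural, 6 of 14 for skeletal muscle, 1 of 9 for cardiac muscle, 1 of 10 for endothelial, 2 of 10 for blood and 5 of 8 for adipocyte genes, and 0 of them passed edgeR's test in either direction, with 2 at an unadjusted p below 0.05. DESeq2 and limma-voom called 0 of these lineage genes as well. Without pair 5 the neural gene Map2 passed as higher, and the cardiac gene Tnnt2 and the adipocyte gene Cd36 as lower. In that fit 2084 of 14726 genes passed. Summed levels ranged from 76 to 211 CPM for pluripotency, from 35 to 194 for adipocyte and from 27 to 130 for blood genes. Over all tested genes, 1597 of 15187 had an unadjusted p below 0.05 in edgeR's test.

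**Figure D5:**
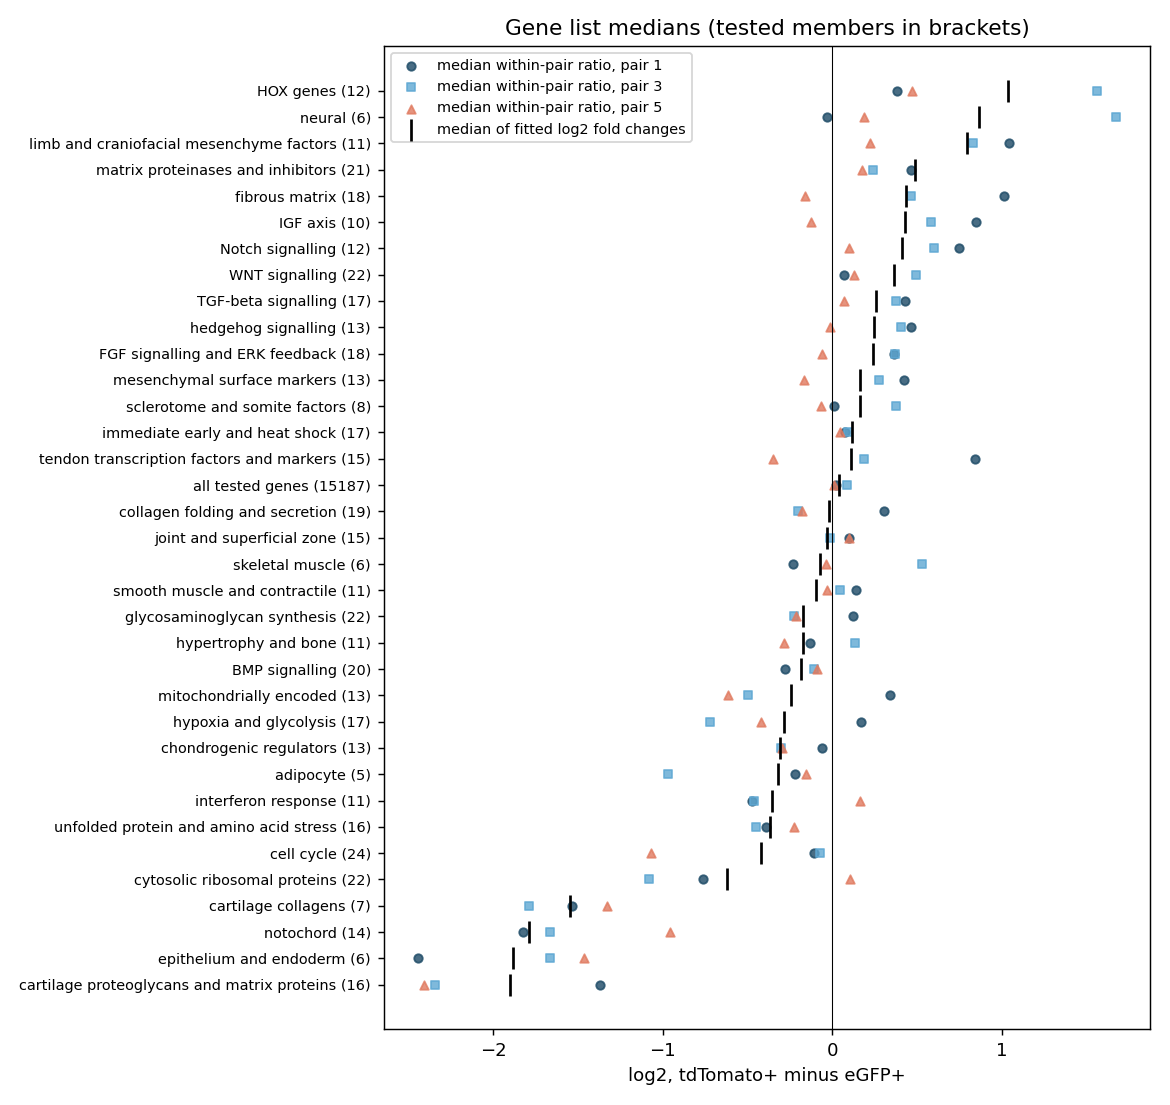
Median log2 difference of each gene list with at least 5 tested members (horizontal axis, tdTomato+ minus eGFP+), with the number tested in brackets. Black ticks are medians of fitted fold changes and coloured symbols the medians of within-pair ratios. The cartilage, notochord and epithelial lists lie left of 0 in each pair, at fitted medians of -1.55, -1.90, -1.79 and -1.88, while fibrous matrix and ribosomal protein genes have pair 5 on the other side of 0.

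Over all genes the pairs differed in how far the sorted cells were apart. In pair 3, 2853 genes were at least 2-fold higher and 1429 at least 2-fold lower in tdTomato+ cells, in pair 1 these were 1578 and 1162, and in pair 5 384 and 556. Yet the 56 lower genes had medians of -2.04, -2.36 and -1.97 in pairs 1, 3 and 5, so they were nearly as far apart in pair 5 as elsewhere. The 12 higher genes had medians of 1.60, 2.25 and 0.96. The genes were called on these values, so the medians describe the calls and do not test them. At least 2-fold in each pair and in the same direction were 93 lower genes, of which 44 were called, and 33 higher genes, of which 4 were called. With pair 5 left out 2084 of 14726 tested genes passed, 990 lower and 1094 higher, with 62 of the 68 among them. Without pair 1 68 passed, sharing 46 with the 68 of the full fit, and without pair 3 46 passed, sharing 41. In these fits 1 residual degree of freedom is left for each gene, and the spread is borrowed across genes.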

How the data were processed

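Poly(A) RNA of sorted 3xR cells was sequenced. The authors deposited 1 table of raw read counts for 56748 genes and 10 libraries; the counts are whole numbers with separate totals per library. RNA was extracted with Trizol, per the labels' protocols, and reads were placed on mm10, per the submitters' processing notes. The aligner, counter, annotation and strand setting were not given in the sources used here, and overlapping genes (14 of the 68 called) and copies of one family are therefore uncertain. Coordinates and biotypes are those of GENCODE M21 (GRCm38), which holds 91.8% of the table's identifiers.

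Under R 4.3.3 and edgeR 4.0.16, filterByExpr on the reporter kept 15187 genes, and TMM scaled the libraries. A robust glmQLFit model of number and reporter was fitted to the 6 paired libraries (2 residual degrees of freedom, median prior 17.1). The standard error is the log2 fold change divided by the square root of F. Within-pair ratios use log2 CPM with a prior count of 2. In the data, deviations from group means correlated at 0.635, 0.532 and 0.666 for the same number and at -0.443 to -0.128 for different numbers. Deviations cancel within each group, so positive values for the same number push the others to be negative on average. Only the same-number values therefore bear on the pairing. What a number marks is not in the labels. No 2 libraries agreed within sampling noise (lowest chi-square per degree of freedom 113).

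The comparison, the paired design and the gene lists were chosen with earlier results of these data known. Named genes were the 5 markers and Prg4, the 15 largest falls and rises past the threshold with a mean of at least 10 CPM, up to 4 called members of each list, Sox9, Acan, Scx, Mkx and Tnmd, and the 2 most abundant members of described lists without a call; any other gene named was chosen after its values were seen. Alternatives were fits without the block, with other libraries, DESeq2 1.42.0, limma-voom (limma 3.58.1), RLE scaling, other filters, a 2-fold threshold and each pair left out. Removal of ribosomal RNA and mitochondrial genes and edgeR's deviances adjusted for small counts were added after seeing the data. Scripts were tested on simulated data. Limits of 3 reads cover counting error only.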

Additional observations from a re-analysis of the deposited data

Results flagged for a closer look

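Levels of 91 named genes were examined for a library standing apart among the 4 eGFP+ DMSO libraries, by the gap to its nearest neighbour over the whole range. Chance flags about 1 in 20 such groups where values are normally distributed, which was not shown for CPM on a linear scale. Here 8 of the 91 genes were flagged, all by their highest value, and the genes are not independent. In eGFP+ library 3 the highest of the 4 values stood apart for Krt19 (24.3 CPM), Cd24a (106 CPM), Car3 (32.5 CPM), Gpc3 (166 CPM), H2bc4, a histone gene (351 CPM), and Fn1 (8295 CPM). In eGFP+ library 1 the same was found for Wwp2 (580 CPM) and Col5a3 (11.0 CPM). For Krt19, Cd24a, Car3, Gpc3 and H2bc4 the tdTomato+ library of number 3 was also the highest of its group, at 4.35, 27.7, 11.7, 61.3 and 111 CPM, and for Col5a3 and Wwp2 the tdTomato+ library of number 1 was, at 36.6 and 316 CPM. For Fn1 the highest tdTomato+ library was number 1, at 11026 CPM.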

How the results depend on the processing

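The 68 called genes kept their direction in every alternative in which they were tested, but their number did not hold. Without the replicate block 0 genes passed on the 6 paired libraries, 0 on the 7 DMSO libraries and 0 on all 10 libraries, in either direction, with 107, 195 and 221 at an unadjusted p below 0.05. With the block on all 10 libraries 14 passed (14 lower, 0 higher). DESeq2 gave 152 (76 higher), limma-voom 178 (94 higher), no filter on low counts 173 (99 higher), and deviances adjusted for small counts, chosen after seeing the data, 115 (45 higher). RLE scaling gave 79, of which 20 were higher. Without 1 pair the count ranged from 46 to 2084, the lower genes from 42 to 990 and the higher genes from 4 to 1094. The notochord median ranged from -1.77 to -1.32. Without a filter the median of all genes shifted from 0.04 to 0.34.

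The genes named next changed sign, none past the threshold. Prg4 had -0.13, -0.27 and -0.27 without the block on 6, 7 and 10 libraries, Dmp1 -0.12 without it on 7 and on 10, and Fn1 -0.015 with it on all 10. With each pair left out the ranges were -0.14 to 2.74 for Prg4, -0.32 to 0.43 for Dmp1, -0.43 to 0.34 for Fn1, -0.20 to 0.54 for Scx, -0.25 to 0.19 for Tnmd and -0.12 to 0.30 for Prrx2. The epithelial list's median of -1.88 was 0.13 without a filter, which tests more of its genes. The causes were not tested. Prg4, with 0 to 37 reads a library, is limited by depth.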
